A study of Homo sapiens with 6 samples.

Results

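The urokinase system and its relatives are represented here by 7 genes, the plasminogen activators PLAU and PLAT, the urokinase receptor PLAUR, the serpins SERPINE2 and SERPINB2, and the serine protease family members PRSS35 and PRSS23. They were chosen by gene symbol, with the shPUS1 against shControl results of these libraries already known, so their values in that contrast are given as a description and carry no p. The 7 genes are 7 of the 60605 genes in the deposited table, and all 7 passed the low-count filter that left 14748 genes for testing. PRSS35 passed it only through the shPUS1 libraries, in which it was high.

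Plasminogen activators are secreted serine proteases that cut the circulating zymogen plasminogen into plasmin, which degrades fibrin and matrix proteins. Urokinase (PLAU) does so bound to its receptor on the cell surface, whereas the tissue-type activator (PLAT) works mainly on fibrin, and both are blocked by serpins, suicide inhibitors that form a covalent complex with their target protease. Basal-like breast cancer cells are a well-known source of urokinase and its receptor.

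The cells were MDA-MB-231, an established triple-negative, mesenchymal-like breast cancer line, and their poly(A) RNA was sequenced. A short hairpin against PUS1, a pseudouridine synthase, was compared with a control hairpin, with 3 libraries in each group (shPUS1 and shControl). The hairpins were delivered by puromycin-selected lentiviral pLKO.1 vectors, and the labels and methods do not say which of the study's hairpins against PUS1 the sequenced cells carried. The deposited column names of the shPUS1 libraries share a 2 before the replicate number, which may be a hairpin number but is not explained. The labels call the libraries biological replicates, and whether those of a group came from separate selections is not stated, so the spread between them may be partly technical.

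Library totals lay between 14241505 and 19625998 estimated counts. PUS1 was measured at 14.5, 27.5 and 12.1 CPM (counts divided by the TMM-scaled library total) in shControl replicates 1, 2 and 3, and at 6.57, 5.47 and 5.37 CPM in the shPUS1 libraries. It fell by 1.64 on the log2 scale (SE 0.32, edgeR quasi-likelihood adjusted p = 0.0462), a call that was kept in 2 of the 6 fits that left out 1 library (without shControl replicate 2, at -1.20, and without shControl replicate 3). The fits in which it was lost called 0 to 11 of all tested genes, against 202 with all libraries. The library of shControl replicate 2 stood apart, with correlations of 0.9505 and 0.9521 with the other shControl libraries against 0.981 between those and 0.9872 to 0.9906 among the shPUS1 libraries, so the members' fold changes are given with and without it. The mesenchymal and basal markers VIM, CD44, MSN, CAV1, AXL and EGFR were all detected, from 19.3 FPKM (fragments scaled by gene length and library total, the deposited per-length unit) for EGFR to 498 FPKM for VIM. ESR1, PGR, CDH1, PTPRC and PECAM1 did not exceed 0.46 FPKM in any library, EPCAM reached 3.12, GATA3 2.16 and ERBB2 6.91 FPKM, and COL1A1 had a mean of 1.57 ± 0.812 FPKM in shControl and 3.29 ± 0.212 FPKM in shPUS1 (SD, n = 3). The part of COL1A1-expressing cells in the results was not tested, and in bulk RNA fewer cells of a type and less RNA per cell cannot be told apart.

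The reference promoters of 6 members were taken from RefSeq (GRCh38.p14), with 9 start sites in all. PLAT was left out of the promoter search, so nothing is said of its promoter. The 4 shown here are those of the 3 members with lower levels in all shPUS1 libraries and of PRSS35, the member with the largest fold change. Each runs 5′ to 3′ on the gene's strand over 300 bases around the start. Capitals mark exact matches, on either strand, to 3 motifs. The AP-1 motif searched was TGANTCA. The TATA motif was TATAAA, and the GC box was GGGCGG, whose other strand reads CCGCCC. None of the motifs contains another. Of PLAU's start sites, the downstream one is shown.
PLAU, chr10:73910882-73911181, plus strand: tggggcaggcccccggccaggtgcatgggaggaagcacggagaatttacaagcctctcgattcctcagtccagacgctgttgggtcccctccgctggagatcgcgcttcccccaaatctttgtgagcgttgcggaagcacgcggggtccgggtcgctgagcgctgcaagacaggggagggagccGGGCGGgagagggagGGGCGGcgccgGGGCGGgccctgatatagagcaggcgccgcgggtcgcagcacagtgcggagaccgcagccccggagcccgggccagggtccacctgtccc
PLAUR, chr19:43670120-43670419, minus strand: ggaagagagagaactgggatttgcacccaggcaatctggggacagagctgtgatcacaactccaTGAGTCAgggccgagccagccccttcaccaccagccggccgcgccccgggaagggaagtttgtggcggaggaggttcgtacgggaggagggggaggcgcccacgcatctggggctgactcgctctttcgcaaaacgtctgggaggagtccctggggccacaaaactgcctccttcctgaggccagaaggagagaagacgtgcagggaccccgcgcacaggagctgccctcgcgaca
SERPINB2, chr18:63887455-63887754, plus strand: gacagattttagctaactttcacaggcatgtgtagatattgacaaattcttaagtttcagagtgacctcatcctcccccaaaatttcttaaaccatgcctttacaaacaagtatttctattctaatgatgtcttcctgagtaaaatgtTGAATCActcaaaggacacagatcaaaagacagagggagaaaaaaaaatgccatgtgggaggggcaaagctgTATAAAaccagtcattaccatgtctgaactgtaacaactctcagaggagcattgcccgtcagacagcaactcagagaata
PRSS35, chr6:83512284-83512583, plus strand: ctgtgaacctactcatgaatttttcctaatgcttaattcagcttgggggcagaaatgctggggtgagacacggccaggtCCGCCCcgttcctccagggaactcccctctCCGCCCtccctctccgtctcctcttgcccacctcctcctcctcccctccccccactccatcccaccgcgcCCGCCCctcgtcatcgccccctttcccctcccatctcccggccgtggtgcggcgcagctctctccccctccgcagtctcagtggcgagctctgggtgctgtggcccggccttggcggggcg

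The letters TGAGTCA stood 186 bases before the PLAUR start, and the SERPINB2 promoter held TGAATCA 102 bases and TATAAA 30 bases before its start. The PLAU promoter shown held GC boxes 66, 51 and 40 bases before the start, and that of PRSS35 held them 171, 141 and 71 bases before it. PLAU's upstream promoter, not shown, held none of the motifs. Among all 35116 RefSeq promoters of this length, 7.71% held the AP-1 motif, 11.5% the TATA motif and 45.0% the GC box. A match describes the letters in the window and does not show that a factor binds there. The PLAU, PLAUR and SERPINB2 windows lie inside the gene models of the deposited table, whereas the PRSS35 start is the first base of its deposited model.

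By length-scaled level, PLAU ranked first among the members in both groups, at 112 ± 4.64 FPKM in shControl and 91.2 ± 3.94 FPKM in shPUS1 (SD, n = 3). In shControl it was followed by PRSS23 (28.0 ± 1.35 FPKM), PLAUR (21.6 ± 1.31), PLAT (18.8 ± 8.0), SERPINE2 (4.27 ± 1.03), SERPINB2 (0.743 ± 0.0208) and PRSS35 (0.167 ± 0.0551 FPKM). The libraries of neighbouring genes in this order overlapped only for PLAUR and PLAT. In shPUS1 the order after PLAU was PLAT (31.9 ± 1.02 FPKM), PRSS23 (27.8 ± 0.492), PLAUR (14.9 ± 1.35), SERPINE2 (6.87 ± 0.323), PRSS35 (4.67 ± 1.13) and SERPINB2 (0.39 ± 0.148 FPKM), with no overlap between neighbours. PLAT thus stood below PRSS23 in shControl and above it in shPUS1, and PRSS35 and SERPINB2 exchanged the lowest places. Against PLAUR, the lower PLAT mean in shControl came from replicate 2 alone (9.52 against 22.6 FPKM). In shControl replicates 1 and 3 PLAT was the higher, at 23.55 and 23.2 against 22.09 and 20.12 FPKM, as it was in every shPUS1 library.

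**Figure D1:**
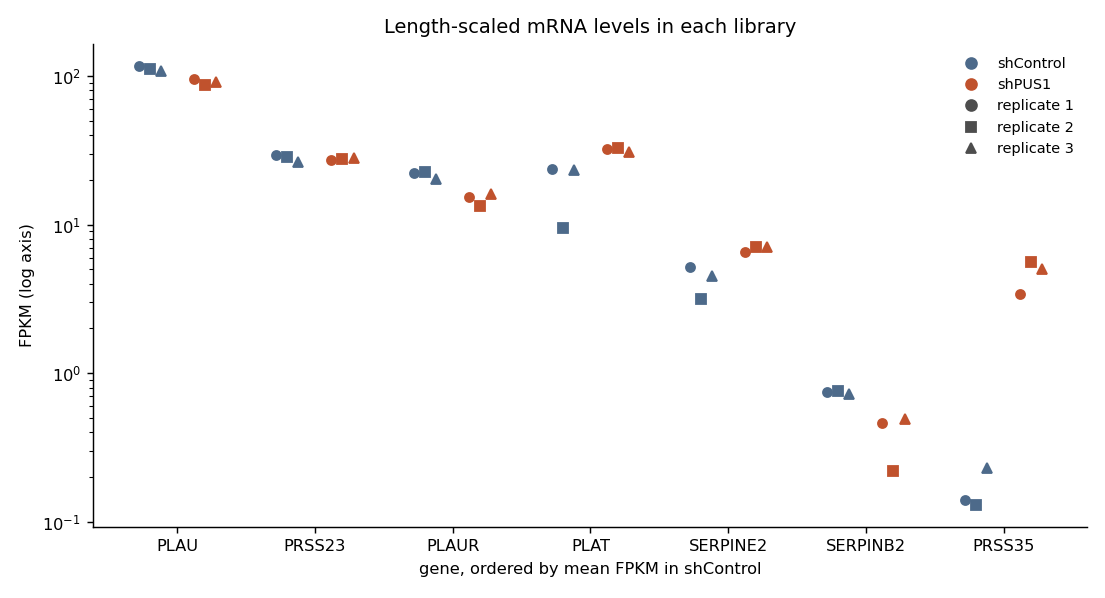
FPKM on a log axis for the 7 members, ordered by mean shControl level; each symbol is 1 library and its shape the replicate number. PLAU is the most abundant in every library, and PRSS35 lies below 1 FPKM in all shControl libraries and between 3.41 and 5.6 FPKM in shPUS1.

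PRSS35 was the single member past the threshold used for calls (an adjusted p below 0.05 together with a log2 fold change of 1 or more in size), a threshold passed by 1.37% of all tested genes, by 0.888% with a higher and by 0.481% with a lower level in shPUS1. The levels of 6 of the 7 members did not overlap between the groups, 3 being higher in shPUS1 (PLAT, SERPINE2 and PRSS35) and 3 lower (PLAU, PLAUR and SERPINB2). Non-overlapping groups were found for 36.1% of all tested genes, 18.8% higher and 17.3% lower. Since the members were picked with this contrast known, nothing is read from these counts. The median log2 fold change was 0.01 over the 7 members, -0.13 without PRSS35 and -0.034 over all tested genes.

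**Figure D2:**
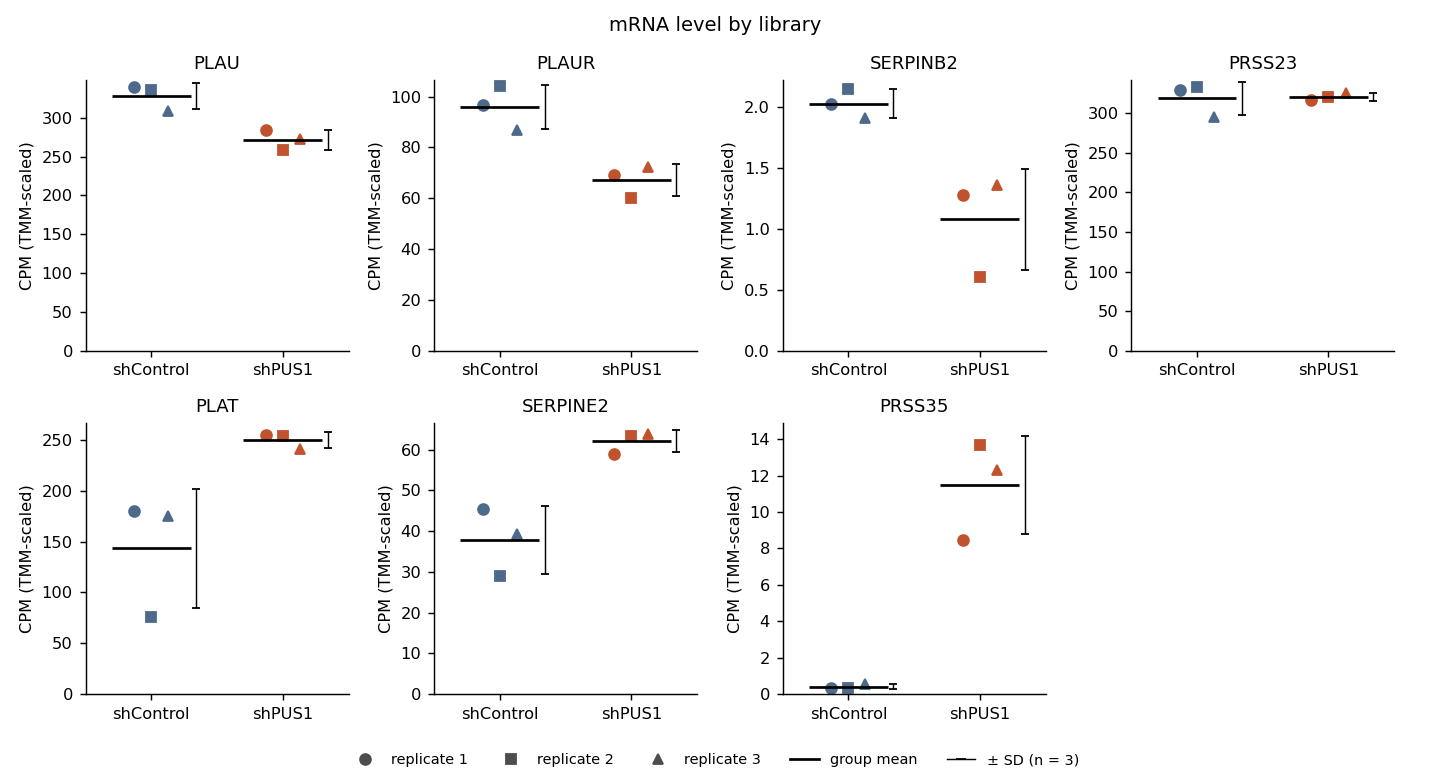
TMM-scaled CPM in each of the 6 libraries for the 7 members, with group means as lines and the SD (n = 3) as bars; all axes start at 0. PLAU, PLAUR and SERPINB2 lie lower in the shPUS1 libraries, PLAT, SERPINE2 and PRSS35 lie higher, PRSS23 overlaps, and shControl replicate 2 has the lowest PLAT and SERPINE2 levels.

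PLAU (ENSG00000122861, plus strand of chromosome 10, 73909177 to 73917496) encodes urokinase. Its levels were 339, 336 and 309 CPM in shControl and 284, 258 and 273 CPM in shPUS1. Every shPUS1 library lay below every shControl library, with a narrow spread in both groups. The means were 328 ± 16.5 and 272 ± 13.2 CPM (SD, n = 3), a difference of -17.1% and a log2 fold change of -0.27 (SE 0.11), which became -0.26 (SE 0.09) without shControl replicate 2. The gene model overlaps C10orf55 on the opposite strand, which reached at most 43.4 counts, whereas the lowest PLAU count was 4530.1.

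PLAT (ENSG00000104368, minus strand of chromosome 8, 42174718 to 42207709) encodes the tissue-type activator and went the other way. It was measured at 180, 76.1 and 175 CPM in shControl and at 255, 254 and 241 CPM in shPUS1. All shPUS1 libraries were higher than all shControl libraries, and the shControl spread came mostly from replicate 2. The means were 144 ± 58.5 and 250 ± 7.91 CPM, a difference of 74.1%, and the log2 fold change of 0.80 (SE 0.29) came down to 0.49 (SE 0.09) without shControl replicate 2. Of the members, PLAT was the one whose fold change depended most on that library.

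In the sum of both activators (PLAU plus PLAT FPKM) PLAT made up 16.8%, 7.92% and 17.7% in the shControl libraries and 25.4%, 27.2% and 25.1% in the shPUS1 libraries. The groups did not overlap, and the PLAT share in shControl replicate 2 was the lowest of all. The sum itself overlapped between groups, at 140, 120 and 131 FPKM in shControl and 127, 120 and 122 FPKM in shPUS1, so the makeup differed where the total did not separate the groups.

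PLAUR (ENSG00000011422, minus strand of chromosome 19, 43646095 to 43670547) encodes the receptor that holds urokinase at the cell surface by a lipid anchor. Its levels were 96.7, 104 and 87.0 CPM in shControl and 69.1, 60.1 and 72.4 CPM in shPUS1. Again all shPUS1 libraries were lower. The means of 95.8 ± 8.35 and 67.2 ± 6.35 CPM differed by -29.9%, and the log2 fold change was -0.51 (SE 0.13), or -0.46 (SE 0.11) without shControl replicate 2. The ratio of PLAU to PLAUR FPKM was 5.29, 4.9 and 5.36 in shControl and 6.22, 6.48 and 5.7 in shPUS1, so the ligand's mRNA exceeded the receptor's in every library and more so in the shPUS1 libraries.

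SERPINE2 (ENSG00000135919, minus strand of chromosome 2, 223975045 to 224039318) encodes protease nexin-1, an extracellular inhibitor of thrombin, urokinase and the tissue-type activator. It stood at 45.4, 28.9 and 39.3 CPM in shControl and at 59.0, 63.4 and 63.9 CPM in shPUS1. All shPUS1 libraries were higher, and shControl replicate 2 was again the lowest. The means were 37.9 ± 8.3 and 62.1 ± 2.67 CPM, with a difference of 64.1% and a log2 fold change of 0.71 (SE 0.18), or 0.55 (SE 0.11) without that library. SERPINE2's RefSeq promoters held a GC box 50 bases before the first start and GC boxes 230 and 183 bases before the second.

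SERPINB2 (ENSG00000197632, plus strand of chromosome 18, 63871692 to 63903888) encodes PAI-2, an inhibitor of urokinase that stays largely inside the cell. It was scarcely expressed, with 31, 41 and 28 counts in shControl and 23, 11 and 23 counts in shPUS1, which correspond to 2.03, 2.15 and 1.91 CPM and to 1.28, 0.602 and 1.36 CPM. The groups did not overlap, and shPUS1 replicate 2 was the lowest. The means were 2.03 ± 0.121 and 1.08 ± 0.416 CPM and the log2 fold change was -0.91 (SE 0.38), a value that came to -0.87 (SE 0.40) without shControl replicate 2 and to -0.62 without shPUS1 replicate 2. At this depth the fold change was known less precisely than that of any other member.

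PRSS35 (ENSG00000146250, plus strand of chromosome 6, 83512534 to 83525704) encodes a secreted protein of the trypsin-like family that is listed as inactive as a protease. Only 5, 6 and 8 reads were counted in the shControl libraries, against 152, 251 and 209 in the shPUS1 libraries. In CPM this was 0.327, 0.315 and 0.545 in shControl and 8.46, 13.7 and 12.3 in shPUS1, and all shPUS1 libraries lay far above all shControl libraries. The means were 0.396 ± 0.13 and 11.5 ± 2.73 CPM, the log2 fold change was 4.86 (SE 0.34), and without shControl replicate 2 it was 4.70 (SE 0.36), still past the threshold. That smaller set of libraries had 3.28% of 15130 genes past the threshold. Without shPUS1 replicate 3 it was 4.80 and not past the threshold, in a fit where edgeR called 0 of 15226 genes and an unadjusted p below 0.05 was found for 2581. As these values chose the gene, nothing is read from which side of the threshold it lies on. With a pseudocount of 1 FPKM the fold change came to 2.26 on the log2(FPKM + 1) scale, which understates changes of genes near 0.

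PRSS23 (ENSG00000150687, plus strand of chromosome 11, 86791059 to 86952910) encodes the closest relative of PRSS35, a secreted protease. It was level across all libraries, at 329, 333 and 295 CPM in shControl and 316, 320 and 326 CPM in shPUS1. The groups overlapped, with means of 319 ± 20.8 and 321 ± 4.89 CPM and a log2 fold change of 0.01 (SE 0.11), or 0.03 (SE 0.09) without shControl replicate 2, and its sign turned with the scaling (-0.01 on library totals without TMM). PRSS35 accounted for 0.477%, 0.457% and 0.858% of the FPKM of this pair in shControl and for 11.1%, 16.7% and 15.1% in shPUS1. FZD4 overlaps the PRSS23 model on the opposite strand with at most 445.7 counts, and since the counting is not stated to use strand, reads of such overlapping genes cannot be told apart.

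**Figure D3:**
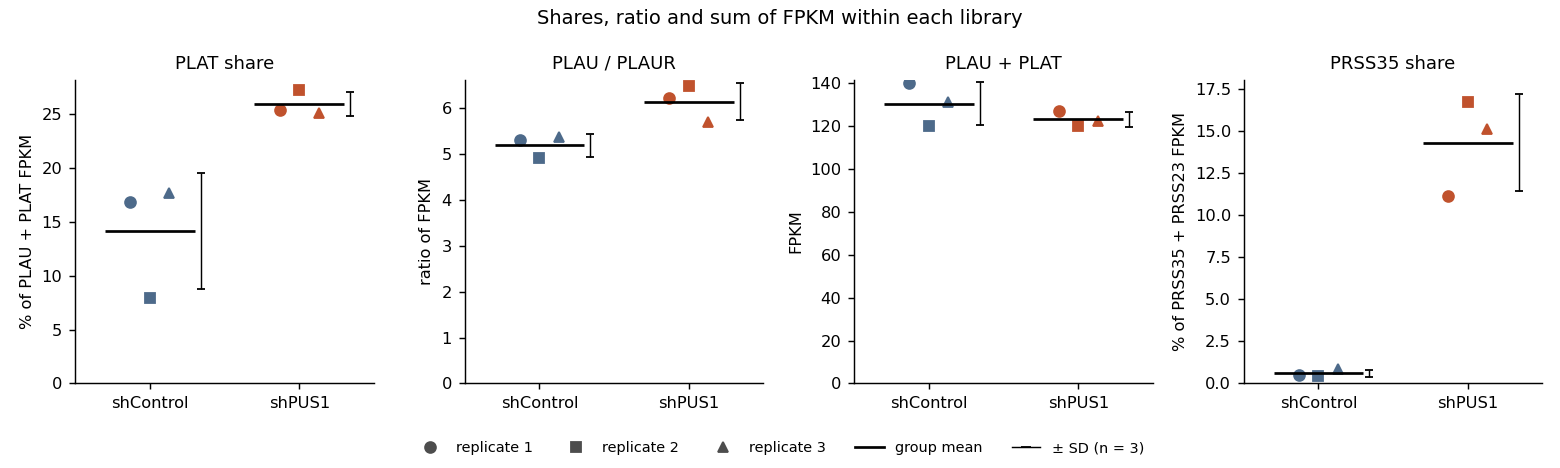
Values computed from FPKM within each library, with the group mean as a line and the SD (n = 3) as a bar: the PLAT percent of PLAU plus PLAT, the ratio of PLAU to PLAUR, the sum of PLAU and PLAT, and the PRSS35 percent of PRSS35 plus PRSS23. Both shares and the ratio are higher in all shPUS1 libraries, with a mean PLAT share of 14.1% in shControl and 25.9% in shPUS1, whereas the sum overlaps between groups.

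**Figure D4:**
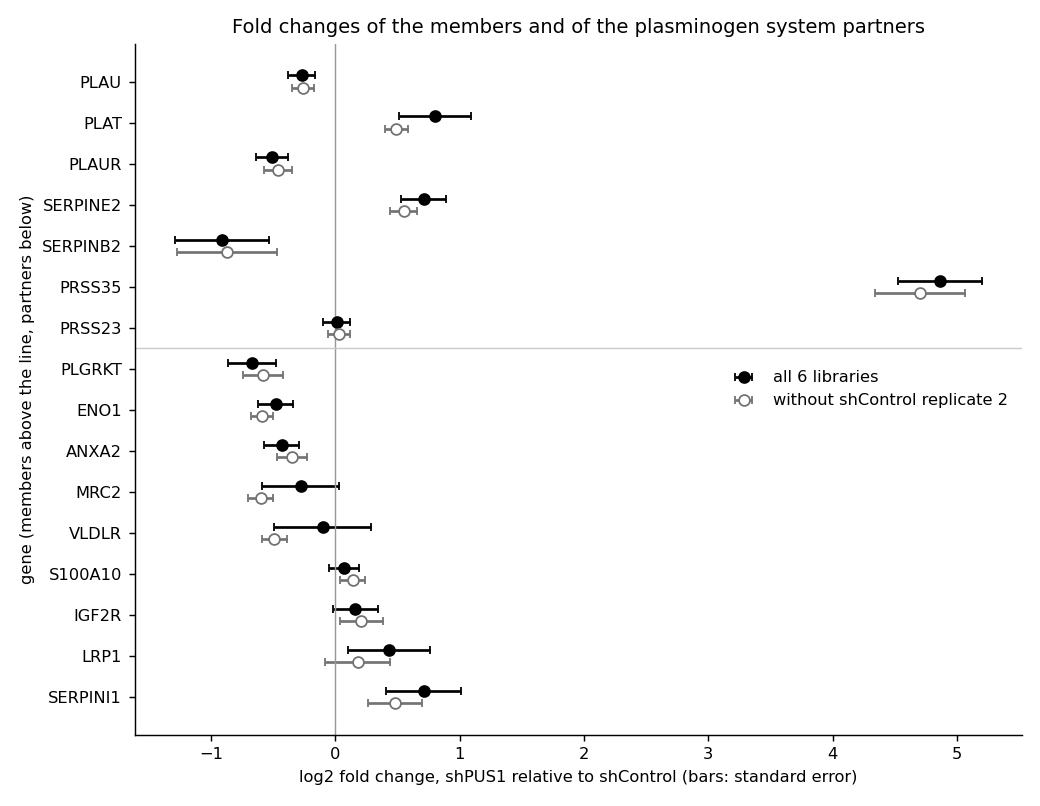
Log2 fold changes (shPUS1 relative to shControl, edgeR) with SE for the 7 members above the line and for 9 tested plasminogen system partners below it, with all 6 libraries (filled) and without shControl replicate 2 (open). PRSS35 lies at 4.86, the other members lie between -0.91 and 0.80, and the partners lie between -0.67 and 0.71.

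The partners of the urokinase system came from a list of 18 genes for plasminogen, its receptors, inhibitors and clearance receptors, of which 10 were expressed highly enough to be tested. By edgeR's quasi-likelihood test with Benjamini-Hochberg adjustment, 0 of the 10 passed the threshold, and DESeq2 and limma also called 0. In the edgeR fit 5 of the 10 had an unadjusted p under 0.05, as did 3758 of all 14748 tested genes. Of the plasminogen-binding proteins, the enolase ENO1 came to -0.48 on the log2 scale (adjusted p = 0.091), the plasminogen receptor PLGRKT to -0.67 (adjusted p = 0.0924), annexin ANXA2 to -0.43 (adjusted p = 0.124) and its partner S100A10 to 0.07. Without shControl replicate 2 the log2 fold changes of ENO1 (-0.59, adjusted p = 0.0052) and PLGRKT (-0.58, adjusted p = 0.0377) were past the p but not the fold threshold.

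Among receptors that clear or bind components of the system, the log2 fold changes were 0.43 for LRP1, 0.16 for IGF2R, -0.28 for MRC2 and -0.10 for VLDLR, and none of these passed the test with all libraries. Without shControl replicate 2 that of LRP1 came to 0.18. Those of MRC2 (-0.60, edgeR adjusted p = 0.00702) and VLDLR (-0.49, adjusted p = 0.0119) were then past the p but not the fold threshold. For SERPINI1 (neuroserpin, an inhibitor of the tissue-type activator) the log2 fold change was 0.71 (adjusted p = 0.185), or 0.48 without that library. The list's median was -0.19, and 1 gene was higher and 4 were lower in shPUS1 without overlap. The shares over all tested genes were 18.8% higher and 17.3% lower. PLG, the gene for plasminogen itself, was not expressed highly enough to be tested, and the 8 untested genes of the list reached at most 0.4 FPKM.

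Of 33 other serpins in the table, a list that shares genes with that of the plasminogen system, 10 were tested. SERPINB7 rose, from 6.7, 3.9 and 5.99 FPKM in shControl to 11.65, 12.31 and 14.83 FPKM in shPUS1 (log2 fold change 1.26, SE 0.21, edgeR adjusted p = 0.0358). SERPINH1, the collagen chaperone HSP47 of the endoplasmic reticulum, which is not a protease inhibitor, fell from 24.94, 32.26 and 25.65 FPKM to 14.53, 12.71 and 13.32 FPKM (log2 fold change -1.01, SE 0.15, adjusted p = 0.0319). Each of these calls was kept in 1 of the 6 fits that left out 1 library, that of SERPINB7 without shControl replicate 2 and that of SERPINH1 without shControl replicate 3, with log2 fold changes from 1.07 to 1.41 and from -1.09 to -0.86. Fits without shControl replicate 1 or without 1 shPUS1 library called at most 11 of all genes. The other 8 serpins did not pass the test, and the median of the list was -0.35. SERPINB1, an intracellular inhibitor of neutrophil proteases, was among the most abundant of the list, at 48.80, 20.87 and 37.03 FPKM in shControl and 24.23, 21.48 and 25.51 FPKM in shPUS1, with groups that overlapped.

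Of 24 other PRSS genes, 5 were tested and 0 passed the threshold in edgeR, with 0 at an unadjusted p under 0.05 and 0 by DESeq2 and limma. The lowest adjusted p was 0.399 and the median log2 fold change -0.13. PRSS12, PRSS3 and PRSS53 had the highest levels, with means over the 6 libraries of 4.42, 4.18 and 0.575 FPKM. Of 70 further serine proteases, protease receptors and Kunitz-type or related inhibitors, 13 were tested. HTRA1, a secreted protease of the trypsin fold, fell from 31.07, 17.30 and 24.75 FPKM in shControl to 10.65, 11.34 and 12.47 FPKM in shPUS1 (log2 fold change -1.06, SE 0.20, edgeR adjusted p = 0.046), a call lost on library totals without TMM and kept only without shControl replicate 2 (-1.24) among the 6 fits that left out 1 library. Of the fits in which HTRA1's call was lost, all but that without shControl replicate 3 called at most 11 of all genes. The most abundant of this list were F2RL1, SPINT2 and F2R, with means of 44.9, 37.0 and 18.5 FPKM, and they did not pass the test. In the Ly6 and uPAR family, to which PLAUR belongs by fold, 9 of 31 genes were tested and 0 passed the threshold in edgeR. An unadjusted p under 0.05 was found for 3 of them, and for 3758 of all 14748 tested genes. DESeq2 and limma also called 0. CD59, LY6E and LYPD6 were its most abundant genes, with means of 34.4, 6.23 and 4.70 FPKM.

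For all members but PRSS23, the sign of their correlations followed the direction of their group differences, known when the members were chosen. As a description over 6 libraries that share the knockdown contrast, Pearson's r of log2 CPM was 0.97 between PLAU and PLAUR, 0.90 between PLAU and SERPINB2, 0.93 between PLAUR and SERPINB2 and 0.95 between PLAT and SERPINE2. PRSS35 had r = -0.96 with PLAU and 0.90 with SERPINE2, whereas PRSS23 ran with none of them, its r lying between -0.32 and 0.19. Of 12607 other protein-coding genes, those most like PLAU were BCAP31 (r = 0.9965), SLC25A6 and TBC1D31, those most like PLAUR were FMC1 (0.9952), SRI and KIF22, and those most like SERPINB2 were SLC38A9 (0.9917), NBDY and DEPDC7. GFPT1 (0.9998), LAMP3 (0.9994) and ATF3 (0.9979) were most like PLAT, and RAB3IP (0.9995), ARHGAP25 and BFSP1 most like SERPINE2. SLCO3A1 (0.9978), SLC36A4 and BEND7 came first for PRSS35, and CAPZA2 (0.9987), ARHGAP22 and KATNBL1 for PRSS23. An r above 0.95 was reached by 839 genes for PLAT and 501 for SERPINE2, by 355 for PRSS35, 283 for PLAUR and 141 for PLAU, and by 24 and 23 for PRSS23 and SERPINB2. All these r include shControl replicate 2, in which PLAT and SERPINE2 were lowest, and they were not computed without it.

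In the gene ontology terms of the deposited table, the members shared chiefly their place outside the cell. Extracellular region was given for 6 of the 7 (all but PRSS23) and for 830 of all tested genes. Fibrinolysis was given for 4, PLAU, PLAUR, PLAT and SERPINB2, of only 11 tested genes with that term. Serine-type endopeptidase activity was given for PLAU, PLAT and PRSS23 but not for PRSS35, and 58 tested genes carried it.

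The 7 genes lie on 7 different chromosomes, and the tested genes next to them mostly did not pass the test. On either side of PRSS35, ME1 (cytosolic malic enzyme, 81.5 kb away) rose from 36.3 to 77.8 CPM (log2 fold change 1.10, SE 0.13, edgeR adjusted p = 0.0182, kept in 2 of 6 fits without 1 library, those without shControl replicate 2 and without shControl replicate 3), while SNAP91 (27.2 kb away) stood at 0.34 on that scale (adjusted p = 0.611). The fits in which ME1's call was lost called 0 to 11 of all genes. Within 1 Mb of PRSS35, ME1 was the only one of 8 tested genes past the threshold, 4 were higher without overlap, 0 were lower, and the median log2 fold change was 0.34. Of all tested genes 18.8% were higher and 17.3% lower without overlap, and nothing is read from a count over 8 genes. SERPINB2 lies in the serpin cluster of its chromosome, where the neighbour SERPINB7 (66.3 kb away) rose as given above while SERPINB2 was lower in every shPUS1 library, and where HMSD on the other side (45.4 kb away) had a log2 fold change of -0.04.

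**Figure D5:**
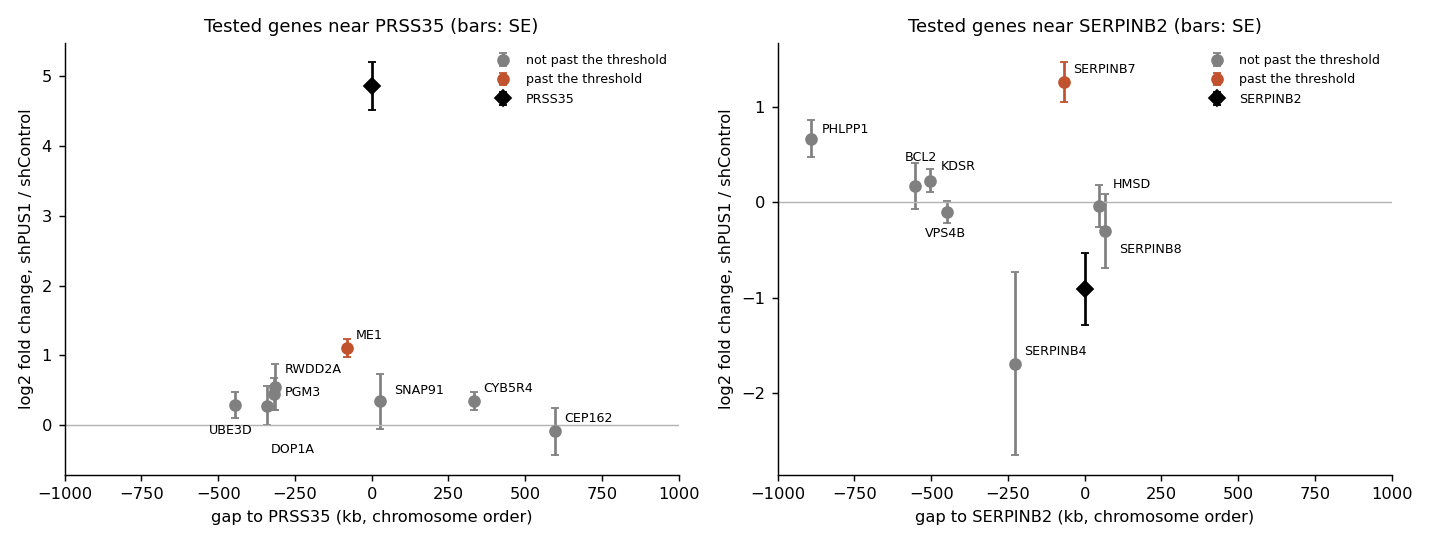
Log2 fold changes with SE of tested genes within 1 Mb of PRSS35 and of SERPINB2 against their gap in kb along the chromosome, orange where past the threshold; the diamond is the member itself. ME1 at 1.10 and SERPINB7 at 1.26 are the neighbours past the threshold, and PRSS35 at 4.86 stands well above the genes around it.

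Near the other members no tested gene within 1 Mb passed the threshold, among 32 genes around PLAU, 45 around PLAUR, 18 around PLAT, 7 around SERPINE2 and 8 around PRSS23. The nearest tested genes had log2 fold changes of 0.21 (CAMK2G) and 0.40 (VCL) beside PLAU, -0.02 (CADM4) and -0.02 (SMG9) beside PLAUR, -0.56 (AP3M2) and 0.01 (IKBKB) beside PLAT, and 0.04 (MRPL44) and 0.21 (CUL3) beside SERPINE2. Beside PRSS23, ME3 had 0.37 and TMEM135 -0.73, the latter with an edgeR adjusted p of 0.046 but under the fold threshold.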

How the data were processed

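Poly(A) RNA-seq libraries of MDA-MB-231 cells (3 shControl, 3 shPUS1) were analysed, grouped by the labels' titles. The submitters' processing notes name HISAT2 and HTSeq 0.6.1. Genome build, annotation release, strandedness and treatment of multi-mapping reads are not given in the sources used here. The deposited estimated counts per gene were the authors' own and were assumed to be not normalized. In each library 29.8% to 31.8% of the values above 0 were not whole numbers. The authors also deposited FPKM, which divide each count by exonic length and library total. No pooled columns were used and 0 per-sample columns were left out. Coordinates come from that table. Among its identifiers, 58337 are in GENCODE 29 (GRCh38), where 99.98% overlap on the same chromosome.

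The counts were rounded, passed through filterByExpr, scaled by TMM (factors 0.973 to 1.032) and tested with edgeR 4.0.16's quasi-likelihood test in R 4.3.3, shPUS1 against shControl, with Benjamini-Hochberg adjustment over all 14748 genes. CPM in the text are TMM-scaled without a prior, and correlations used log2 CPM with a prior count of 2. Library totals limit precision for genes with few counts. No pair of libraries agreed within sampling noise (chi-square per degree of freedom 5.35 to 86.2). Replicate numbers did not pair the libraries (residual r -0.05, -0.03 and -0.19).

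Alternatives were DESeq2 1.42.0 (the study's tool), its size factors in edgeR, library totals, no low-count filter, a replicate block, limma 3.58.1 on log2(FPKM + 1) and log2(FPKM + 0.1) with a mean FPKM of at least 1 and on log2(FPKM + 1) without that minimum, no fold minimum, and each library left out in turn. Promoter sequences came from RefSeq. Named were the 7 members, PUS1, plasminogen system genes whose mean FPKM reached 1 in either group and PLG, in other lists up to 5 genes past the threshold and the 3 most abundant, 3 most correlated genes per member, nearest tested neighbours and cell type markers. Not every gene under this rule is reported here. Members, lists and this rule were chosen with earlier results of these data known.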

Additional observations from a re-analysis of the deposited data

How the results depend on the processing

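The log2 fold changes of PLAU, PLAUR, PLAT and SERPINE2 kept their sign in 14 of 14 alternatives (-0.32 to -0.23, -0.58 to -0.44, 0.49 to 0.99 and 0.55 to 0.86), as did PRSS35 (2.26 to 5.13), and SERPINB2 did in 12 of 12 (-1.10 to -0.33). PRSS23 kept it in 8 of 14 (-0.05 to 0.03). The members were chosen with this contrast known, and the groups of all but PRSS23 did not overlap. Their signs could therefore hardly turn, and nothing is read from these counts. Leaving out 1 library gave 0 to 1 members past the threshold, 0 to 3 other serpins, 0 to 1 other serine proteases and inhibitors, and 0 to 497 of all genes, where 202 passed with all libraries. Without shControl replicate 1 or without 1 shPUS1 library, 0 to 11 of all genes passed, so calls were lost there across all genes. Among the other serpins (2 with the main settings), limma with a pseudocount of 1 called 1 with the FPKM minimum and 0 without it. Among the other serine proteases (1 with the main settings), library totals without TMM and all 3 limma settings called 0. Over all genes, DESeq2 called 489, no low-count filter 536, no fold minimum 380, and limma 87 and 20 (pseudocount 1, with and without the FPKM minimum) and 112 (pseudocount 0.1). The cause of these shifts was not tested.

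With the replicate block, 18 of all genes, 1 member (PRSS35), 0 other serpins and 0 other serine proteases passed the threshold. The numbers do not pair the libraries, so a call lost under the block is not read as a weaker effect, and why it was lost was not tested. Low counts limit what the libraries resolve for SERPINB2 and for the shControl level of PRSS35.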

Other observations

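Further genes of the serpin cluster on chromosome 18 and a few protease inhibitors showed values that turn on shControl replicate 2, and they were chosen after their values were seen. Of 10 serpin B genes of the cluster in the table, 4 were tested. SERPINB4, an inhibitor of chymotrypsin-like proteases, had 52, 2 and 42 counts in shControl and 7, 8 and 19 in shPUS1, groups that overlapped through shControl replicate 2 (log2 fold change -1.69, SE 0.96, edgeR adjusted p = 0.301). Without that library it fell by 2.28 on the log2 scale (adjusted p = 0.0117). SERPINB3, its near-identical neighbour, had 23, 0 and 17 counts in shControl and 3, 2 and 1 in shPUS1, and was too low to be tested with all libraries. Without shControl replicate 2 its log2 fold change was -3.49 (adjusted p = 0.00516), at counts this low. How reads matching both copies were assigned is not stated, and the deposited counts of both genes were whole numbers. SERPINB8 ran the other way, with 552.7 estimated counts in shControl replicate 2 against 170.7 and 145.5 in the other shControl libraries and 237.8 to 243.6 in shPUS1.

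SPINT1, a membrane-bound inhibitor of hepatocyte growth factor activator, was at 3.71, 0.24 and 3.71 FPKM in shControl and at 2.49, 2.71 and 2.46 FPKM in shPUS1. Its log2 fold change of 0.06 became -0.50 (edgeR adjusted p = 0.0298) without shControl replicate 2. TFPI2, a Kunitz-type inhibitor of plasmin and trypsin, was at 20.92, 9.78 and 18.93 FPKM in shControl and at 11.09, 10.09 and 10.43 FPKM in shPUS1, and its log2 fold change went from -0.62 (adjusted p = 0.178) to -0.88 (adjusted p = 0.0019). The collagen receptor MRC2, at 10.60, 4.42 and 11.83 FPKM in shControl, went from -0.28 to -0.60 (adjusted p = 0.00702), and VLDLR, at 1.85, 0.54 and 1.80 FPKM, from -0.10 to -0.49 (adjusted p = 0.0119). In each of these 4 genes the level of shControl replicate 2 was the lowest of all 6 libraries.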
